A study of Mus musculus with 24 samples.

Results

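Foxa2, Sox17, Ttr, Apoa1, Mttp and Cubn are 6 genes with roles in endoderm, the cell layer that gives rise to the gut, the liver and the absorptive lining of the yolk sac. They were taken as the probes whose platform annotation names only 1 gene, that gene being among these 6, which gave 6 probes of 20280, 1 for each gene, or 6 of the 8973 genes that could be named. The RNA came from mouse embryoid bodies, aggregates of differentiating embryonic stem cells, whose cells were sorted by Flk1 (gene Kdr), a VEGF receptor carried by mesoderm with vascular potential and later by endothelium. The groups were Flk1+ and Flk1- cells after 84 h, Flk1+ and Flk1- cells after 95 h, and Flk1+ and Flk1- cells after 8 d of differentiation, with 4 samples in each of the 6. Each sample was hybridised in Cy5 to 1 of 24 Agilent mouse development arrays against 1 common Cy3 reference, RNA of homogenized mouse pups. The labels used here name no genetic change, drug, cell line or culture condition for any group.

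Foxa2 and Sox17 are transcription factors. Foxa2 opens chromatin at endoderm genes and is also made in the node, notochord and floor plate, and Sox17 is required for definitive endoderm and is also used by endothelium. The visceral endoderm of the yolk sac and the fetal liver secrete carrier proteins: transthyretin (Ttr) carries thyroid hormone and retinol-binding protein, and apolipoprotein A-I (Apoa1) is the main protein of high-density lipoprotein. Microsomal triglyceride transfer protein (Mttp) loads lipid onto apolipoprotein B inside the secretory pathway, and cubilin (Cubn) is the large receptor on the apical surface of absorptive cells that takes up vitamin B12 bound to intrinsic factor, and high-density lipoprotein. In mouse, Ttr is also made in the choroid plexus and Cubn in the kidney tubule.

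Every level below is a log2 ratio of sample over pup reference after the median of each array was set to 0. A level of 0 is therefore close to the pup level of that gene, and a difference of 1 is a doubling. Levels of different genes are not set against each other, since the reference holds each gene at its own amount. The files used here hold ratios and no intensities, so whether a very low ratio, such as those of Apoa1 and Ttr, lay above background is not given. The sort was visible in its own gene: Kdr averaged 0.98 ± 0.79 in Flk1+ cells and -0.92 ± 0.15 in Flk1- cells at 84 h, 1.85 ± 0.11 in Flk1+ cells and -1.08 ± 0.15 in Flk1- cells at 95 h, and 1.58 ± 0.21 in Flk1+ cells and -0.31 ± 0.036 in Flk1- cells at 8 d (SD, n = 4 each). Correlations between arrays of a group ran from 0.590 in Flk1+ cells to 0.966 in Flk1- cells, both at 84 h. Flk1+ 84 h arrays 2 and 4 and Flk1- 84 h array 4 stood apart from the others. For the endoderm genes named at the start, calls that change when these 3 outlying arrays are dropped are given with both values. Genes of the lists further below were not tested without these arrays. The spread over all probes of an array (SD) was 0.562 to 0.634 at 8 d and 0.703 to 1.01 at the earlier times. The labels do not say that the 4 samples of a group came from separate cultures, so p-values speak only for the spread among the samples at hand, part or all of which may be technical.

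A difference was called when its adjusted p in limma, fitted over all 24 arrays and adjusted by Benjamini-Hochberg over 17440 features, was under 0.05. Between the sorts at 84 h, 3 of the 6 genes were called, with Foxa2 and Sox17 lower and Apoa1 higher in Flk1+ cells, where 13.5% of all features were called in either direction. At 95 h 2 of the 6, Foxa2 and Sox17, were lower in Flk1+ cells and none was higher, against 2.03% of all features called and 1.37% called lower. At 8 d 4 of the 6, Foxa2, Ttr, Apoa1 and Mttp, were lower in Flk1+ cells and none was higher, against 0.373% of all features called and 0.224% called lower. Replicate numbers were taken to pair the samples of the sorts at 95 h and 8 d, which the labels do not state. With that number as a block 545 in place of 354 features were called at 95 h and 139 in place of 65 at 8 d, with the same genes of the 6 called. The count over all features depended on the processing, with 347 to 4550 features at 84 h (2352 as given), 135 to 698 at 95 h and 31 to 2332 at 8 d over the alternatives. At 8 d 952 features were called when the fit held the 8 d arrays alone, with 4 of the 6 genes, and 2332 with array weights, with all 6 lower. The median difference of the 6 genes, Flk1+ minus Flk1-, was -0.42 at 84 h, -0.69 at 95 h and -1.02 at 8 d, beside 0.0041, -0.0035 and 0.0067 over all features.

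**Figure D1:**
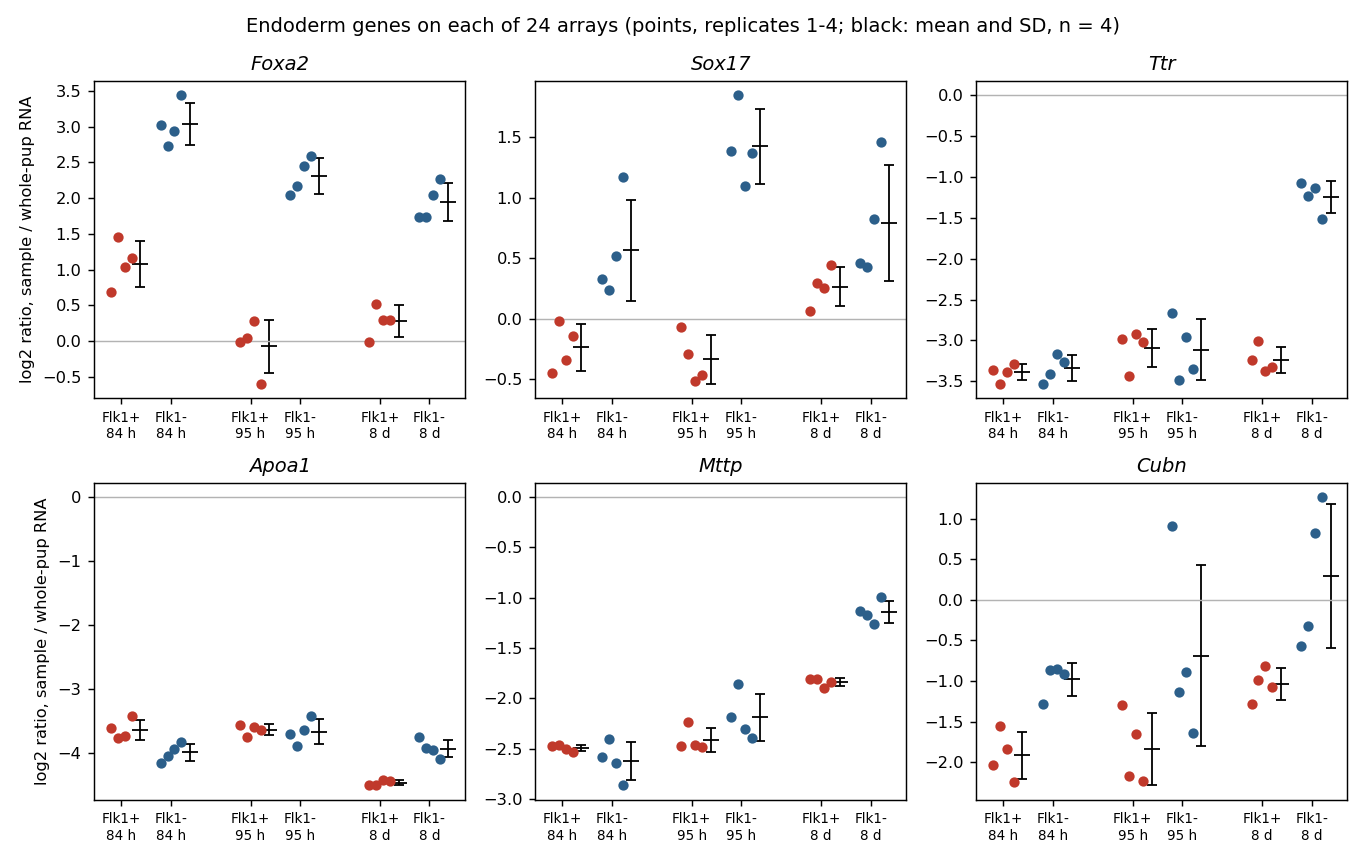
Log2 ratio of sample over pup RNA (vertical axes, each panel on its own scale) of the 6 genes on each array, with Flk1+ (red) left of Flk1- (blue) at 84 h, 95 h and 8 d. Points are arrays 1 to 4 from left to right, and black bars are the mean and SD (n = 4). Foxa2 lay higher in Flk1- cells at each time, Ttr lay at -1.52 to -1.07 in Flk1- cells at 8 d and under -2.6 elsewhere, and Cubn scattered most.

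Foxa2 was lower in Flk1+ than in Flk1- cells at all 3 times, by a factor of 3.87 at 84 h, 5.22 at 95 h and 3.19 at 8 d. At 84 h its log2 ratios were 0.68, 1.46, 1.04 and 1.16 in Flk1+ cells and 3.02, 2.73, 2.94 and 3.44 in Flk1- cells. The highest Flk1+ array lay 1.27 below the lowest Flk1- array, and the mean of Flk1- cells stood at 8.19 times the pup reference, the highest of the 6 groups. At 95 h the values were -0.0091, 0.041, 0.28 and -0.60 in Flk1+ cells, close to the pup level, and 2.04, 2.17, 2.45 and 2.59 in Flk1- cells. At 8 d they were -0.017, 0.52, 0.30 and 0.29 in Flk1+ cells and 1.74, 1.73, 2.05 and 2.27 in Flk1- cells. The arrays of the sorts overlapped at none of these times.

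The difference in Foxa2, Flk1+ minus Flk1-, was -1.95 at 84 h (SE 0.20, limma adjusted p = 1.3029e-06), -2.39 at 95 h (SE 0.20, adjusted p = 1.3642e-07) and -1.67 at 8 d (SE 0.20, adjusted p = 1.3178e-04). By size it ranked 24 of 17440 features at 84 h, 4 at 95 h and 10 at 8 d. All 3 were called under each of 32 alternatives in processing, where they ran from -2.08 to -1.82, from -2.60 to -2.21 and from -1.76 to -1.56. In bulk RNA a smaller share of cells with a transcript and less of it per cell cannot be told apart, here and for all 6 genes. The change of the difference between times was not called, at -0.43 for 95 h minus 84 h (95% interval -1.02 to 0.15, adjusted p = 0.426) and at 0.71 for 8 d minus 95 h (interval 0.13 to 1.30, adjusted p = 0.474). The second interval leaves out 0, since intervals are not adjusted over features.

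Within Flk1+ cells Foxa2 was lower at 95 h than at 84 h by 1.16 on the log2 scale, with no overlap of arrays (difference -1.16, SE 0.20, adjusted p = 0.00137). This call was lost when the fit held only the 8 arrays of those groups (adjusted p = 0.153). The same step in Flk1- cells was -0.72 and not called (adjusted p = 0.0670), although the arrays did not overlap. It passed the threshold without Flk1+ 84 h array 2 (adjusted p = 0.0456) or without Flk1+ 95 h array 4 (0.0451), arrays that enter only the shared estimate of spread. The step to 8 d was 0.35 in Flk1+ cells (adjusted p = 0.228) and -0.36 in Flk1- cells (adjusted p = 0.226), and neither passed, except the second with array weights (-0.51, adjusted p = 0.0397). Ordered by mean, Foxa2 ran Flk1- 84 h, Flk1- 95 h, Flk1- 8 d, Flk1+ 84 h, Flk1+ 8 d and Flk1+ 95 h, with overlapping arrays between Flk1- 95 h and 8 d and between Flk1+ 8 d and 95 h.

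Sox17 was lower in Flk1+ cells at 84 h, by a factor of 1.74, and at 95 h, by a factor of 3.38, the time of the highest mean in Flk1- cells. At 84 h the log2 ratios were -0.45, -0.015, -0.34 and -0.14 in Flk1+ cells and 0.33, 0.24, 0.52 and 1.17 in Flk1- cells. The lists did not overlap, with 0.26 between their nearest arrays, and the highest value came from Flk1- array 4, 1 of the 3 outlying arrays. The difference was -0.80 (SE 0.21, adjusted p = 0.0204). It was -0.60 without Flk1- 84 h array 4 (adjusted p = 0.0573), -0.75 without all 3 arrays (adjusted p = 0.0731) and kept its size when the other groups were left out of the fit (adjusted p = 0.102), and none of these passed.

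At 95 h Sox17 stood at -0.067, -0.29, -0.51 and -0.47 in Flk1+ cells, against 1.38, 1.85, 1.10 and 1.37 in Flk1- cells. No array of the sorts came within 1.17 of the other sort. The difference of -1.76 (SE 0.21, adjusted p = 3.2356e-05) ranked 18 by size and was called under all 32 alternatives. At 8 d the values were 0.063, 0.30, 0.25 and 0.45 in Flk1+ cells and 0.46, 0.43, 0.83 and 1.46 in Flk1- cells, whose ranges overlapped. That difference, -0.53 (95% interval -0.97 to -0.084), was not called (adjusted p = 0.764), except with array weights (-0.62, adjusted p = 0.0137).

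Over time, Flk1- cells had more Sox17 after 95 h than after 84 h (difference 0.86, SE 0.21, adjusted p = 0.0439) and less after 8 d than after 95 h (difference -0.63, adjusted p = 0.0450), with overlapping arrays each time. In Flk1+ cells the level after 8 d exceeded that of 95 h by 0.60 with no overlap (adjusted p = 0.0483), and the step before was -0.10 and not called (adjusted p = 0.767). All 3 of these calls lay near the threshold and were lost in 14, 15 and 15 of 32 alternatives. Leaving out Flk1- 84 h array 1, 2 or 3 or Flk1- 95 h array 1, 2 or 4 ended the first, with values of 0.72 to 0.88 (adjusted p from 0.0532 to 0.147). Leaving out Flk1- 8 d array 1, 2 or 3 or Flk1- 95 h array 1, 2 or 4 ended the second, at -0.65 to -0.49 (adjusted p from 0.0680 to 0.153), and Flk1+ 8 d array 1, 2, 3 or 4 or Flk1+ 95 h array 2, 3 or 4 the last, at 0.54 to 0.67 (adjusted p from 0.0532 to 0.122).

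The change of the sort difference in Sox17 at 8 d minus 95 h was 1.23 (SE 0.30) and was not called (adjusted p = 0.0805). With the replicate number as a block, taken to pair samples at both of these times, it was called (adjusted p = 0.0357). It was also called without Flk1- 8 d array 4 (1.45, adjusted p = 0.0184), without Flk1- 84 h array 4 (adjusted p = 0.0372) and without the 3 outlying arrays (adjusted p = 0.0219). The change at 95 h minus 84 h was -0.96 (adjusted p = 0.277). Sox17 was highest in Flk1- cells at 95 h and lowest in Flk1+ cells at 95 h, and of the neighbours in its order only Flk1+ 8 d and Flk1+ 84 h did not overlap.

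**Figure D2:**
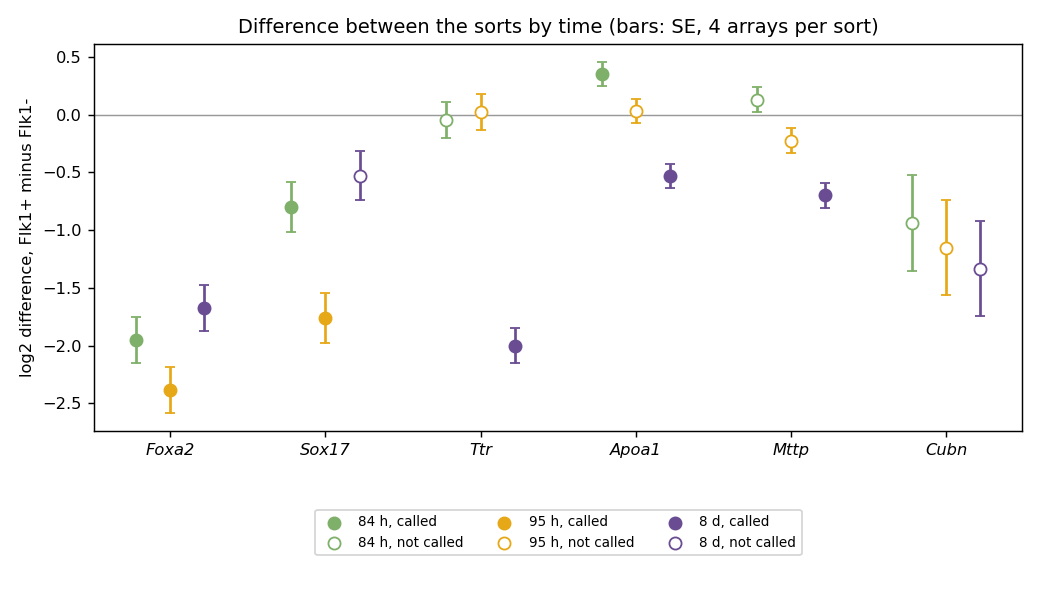
Difference between the sorts, Flk1+ minus Flk1- (log2, vertical axis), for each gene at 84 h, 95 h and 8 d, with SE from the fit (4 arrays a sort). Filled points were called and open points were not. Foxa2 lay between -2.39 and -1.67 at each time, and Ttr lay near 0 until 8 d, when it reached -1.999.

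Ttr, the transthyretin gene, did not differ detectably between the sorts at the early times and was lower in Flk1+ cells at 8 d by a factor of 4.00. At 84 h its log2 ratios were -3.36, -3.53, -3.38 and -3.29 in Flk1+ cells and -3.53, -3.41, -3.17 and -3.26 in Flk1- cells. At 95 h they were -2.99, -3.44, -2.92 and -3.02 in Flk1+ cells and -2.66, -3.49, -2.96 and -3.35 in Flk1- cells. All 16 of these values lay under -2.6, with group means of 0.0954 to 0.117 of the pup level, and the sorts overlapped. At 8 d Flk1+ cells had -3.24, -3.01, -3.38 and -3.33, whereas Flk1- cells had -1.07, -1.24, -1.13 and -1.52, or 0.423 of the pup level on average.

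The difference in Ttr at 8 d was -1.999 (SE 0.16, adjusted p = 2.6779e-07), the lowest of all 17440 features, with 1.49 between the nearest arrays of the sorts. It was -0.047 at 84 h (95% interval -0.37 to 0.28, adjusted p = 0.859) and 0.023 at 95 h (interval -0.30 to 0.35, adjusted p = 0.9991). Flk1- cells had more Ttr after 8 d than after 95 h, a difference of 1.87 (SE 0.16, adjusted p = 1.3634e-08), a factor of 3.67, whereas the same step within Flk1+ cells was -0.15 (interval -0.47 to 0.18, adjusted p = 0.554). The change of the sort difference at 8 d minus 95 h was tested directly, at -2.02 (SE 0.22, adjusted p = 3.7784e-05). With the settings of this test Ttr was the only 1 of the 6 genes called, where 0.533% of all features were called and 0.183% called lower. Under 6 of the alternatives Sox17, Apoa1 or Mttp passed as well, as given with those genes. The 3 calls for Ttr held under all 32 alternatives, with the 8 d difference between -2.09 and -1.90.

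Mttp, which prepares lipoproteins for secretion, was not called between the sorts at 84 h or 95 h, and was lower in Flk1+ cells at 8 d. Its mean was higher at 8 d than before in both sorts, a step that in Flk1+ cells depended on the normalization. At 84 h the log2 ratios were -2.47, -2.46, -2.50 and -2.54 in Flk1+ cells and -2.58, -2.40, -2.64 and -2.86 in Flk1- cells. At 95 h they were -2.47, -2.23, -2.46 and -2.48 in Flk1+ cells and -2.19, -1.86, -2.31 and -2.39 in Flk1- cells. The sorts overlapped at both times, and neither difference was called, at 0.13 (95% interval -0.097 to 0.36, adjusted p = 0.429) and -0.22 (interval -0.45 to 0.0021, adjusted p = 0.486). By replicate number, taken to pair the samples at 95 h, Flk1+ minus Flk1- was below 0 in 4 of 4 pairs there (-0.37 to -0.088), and with that number as a block the adjusted p was 0.213. Quantile normalization made the 84 h difference 0.50 and called (adjusted p = 0.0275).

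At 8 d Mttp had -1.80, -1.81, -1.89 and -1.84 in Flk1+ cells and -1.13, -1.17, -1.26 and -0.99 in Flk1- cells. The groups were tight and lay 0.55 apart, and the difference of -0.70 (SE 0.11, adjusted p = 0.00254) was called under all 32 alternatives. The 8 d level of Mttp exceeded the 95 h level by 1.05 in Flk1- cells (SE 0.11, adjusted p = 3.9184e-07, called under all 32 alternatives). In Flk1+ cells the same step was 0.57 (SE 0.11, adjusted p = 5.4612e-04) and without overlap, but after quantile normalization it was 0.13 and not called (adjusted p = 0.517). The change of the sort difference over this step was -0.47 and not called (adjusted p = 0.294), except with array weights (-0.61, adjusted p = 0.0266). Flk1- cells also had more Mttp after 95 h than after 84 h, with a difference of 0.44 (adjusted p = 0.0442), a call lost in 19 of 32 alternatives, among them leaving out Flk1- 84 h array 1, 3 or 4 or Flk1- 95 h array 1 or 2 (0.33 to 0.45, adjusted p from 0.0532 to 0.145).

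Apoa1 had the smallest range of the 6 genes, 0.83 between its lowest and highest group mean, and was higher in Flk1+ cells at 84 h and lower in them at 8 d, a contrast between these times that was not tested. At 84 h its log2 ratios were -3.62, -3.78, -3.74 and -3.43 in Flk1+ cells and -4.16, -4.05, -3.94 and -3.84 in Flk1- cells. At 95 h they were -3.57, -3.75, -3.60 and -3.64 in Flk1+ cells and -3.71, -3.90, -3.65 and -3.43 in Flk1- cells. At 8 d Flk1+ cells had -4.50, -4.51, -4.43 and -4.44, the lowest of all groups, and Flk1- cells had -3.76, -3.93, -3.96 and -4.10. The sorts did not overlap at 84 h, by 0.060, nor at 8 d, by 0.34.

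Apoa1 was higher in Flk1+ cells at 84 h by 0.36 (SE 0.10, adjusted p = 0.0301), a factor of 1.28, did not differ detectably at 95 h (0.031, 95% interval -0.19 to 0.25, adjusted p = 0.997) and was lower in Flk1+ cells at 8 d (-0.53, SE 0.10, adjusted p = 0.0201). The 84 h call was lost when the fit held the 84 h arrays alone (adjusted p = 0.172), without the 3 outlying arrays (0.37, adjusted p = 0.0706), and without Flk1+ array 4 or Flk1- array 1, 2 or 3 (0.29 to 0.37, adjusted p from 0.0574 to 0.106). Over all alternatives the 84 h difference ran from 0.29 to 0.70, so its size depended on the processing. The 8 d call was lost after quantile normalization (-0.46, adjusted p = 0.0522) and without any 1 of Flk1+ arrays 1 to 4 or Flk1- arrays 1 to 3 (-0.55 to -0.47, adjusted p from 0.0525 to 0.0897). Within Flk1+ cells Apoa1 was lower at 8 d than at 95 h (-0.83, SE 0.10, adjusted p = 4.2935e-06), a factor of 1.78, with no overlap and under all 32 alternatives. In Flk1- cells that step was -0.27 and not called (adjusted p = 0.0818), except with array weights (adjusted p = 8.2898e-04), without the 3 outlying arrays (adjusted p = 0.0362) and without Flk1- 95 h array 2 (-0.34, adjusted p = 0.0271). The step from 84 h to 95 h was 0.0012 in Flk1+ cells (adjusted p = 0.994) and 0.33 in Flk1- cells (adjusted p = 0.118), the second called with array weights (0.49, adjusted p = 0.00193) and without the 3 outlying arrays (0.38, adjusted p = 0.0390). After quantile normalization the step in Flk1+ cells was -0.447 and called (adjusted p = 0.0230), so it depended on the normalization. The change of the sort difference was -0.56 at 8 d minus 95 h (adjusted p = 0.110), and it passed without the 3 outlying arrays (adjusted p = 0.0321) and without Flk1- 95 h array 4 (-0.64, adjusted p = 0.0465).

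Cubn, the uptake receptor, had lower means in Flk1+ cells at each time, and no comparison of it was called. At 84 h its log2 ratios were -2.04, -1.55, -1.83 and -2.24 in Flk1+ cells and -1.28, -0.87, -0.85 and -0.92 in Flk1- cells, without overlap. At 95 h they were -1.29, -2.17, -1.65 and -2.23 in Flk1+ cells and 0.91, -1.13, -0.89 and -1.64 in Flk1- cells, where array 1 lay far above the other 3. At 8 d they were -1.28, -0.99, -0.81 and -1.07 in Flk1+ cells and -0.57, -0.32, 0.83 and 1.26 in Flk1- cells, again without overlap but with a wide spread in Flk1- cells. The SD of Cubn within groups, pooled, was 0.63, against 0.13 to 0.32 for the other 5 genes.

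The differences in Cubn were -0.94 at 84 h (95% interval -1.79 to -0.081, adjusted p = 0.121), -1.15 at 95 h (interval -2.01 to -0.29, adjusted p = 0.220) and -1.33 at 8 d (interval -2.19 to -0.48, adjusted p = 0.328). The 84 h difference was called when the fit held the 84 h arrays alone (adjusted p = 0.0335) and without Flk1- 95 h array 1 (adjusted p = 0.0461), which enters only the estimate of spread, and that of 8 d with array weights (-1.40, adjusted p = 0.00199). At 95 h the difference was -0.62 without Flk1- array 1. The step of Cubn from 95 h to 8 d was 0.80 in Flk1+ cells (adjusted p = 0.177) and 0.98 in Flk1- cells (adjusted p = 0.107), and neither was called. The first passed when the fit held only the arrays of those groups (adjusted p = 0.0193), and the second with array weights (1.63, adjusted p = 0.00493) and without Flk1- 95 h array 1 (1.52, adjusted p = 0.00306).

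**Figure D3:**
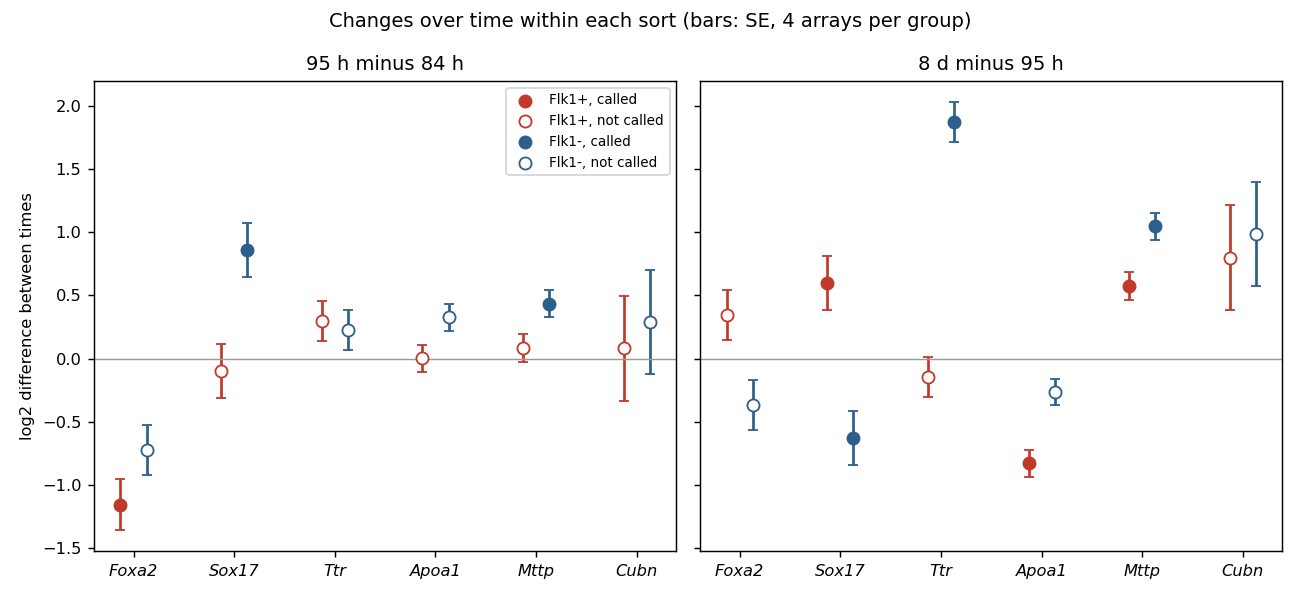
Difference between consecutive times within each sort (log2, later minus earlier, vertical axis) for the 6 genes, with SE from the fit (4 arrays a group), Flk1+ in red and Flk1- in blue, filled where called. From 95 h to 8 d Ttr stood at -0.15 in Flk1+ cells and 1.87 in Flk1- cells, and Apoa1 at -0.83 in Flk1+ cells and -0.27 in Flk1- cells.

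Counted by step, 1 of the 6 genes was called between 84 h and 95 h in Flk1+ cells, Foxa2, against 19.8% of all features. In Flk1- cells 2 were called over that step, Sox17 and Mttp, both higher at 95 h, against 1.64% of all features called and 1.06% called higher. Between 95 h and 8 d 3 genes were called in Flk1+ cells (Sox17 and Mttp higher, Apoa1 lower), against 22.1% of all features. In Flk1- cells 3 were called (Ttr and Mttp higher, Sox17 lower), against 17.7%. For the change of the sort difference at 95 h minus 84 h, 0 of the 6 were called by limma, with 3 at an unadjusted p under 0.05, and 0.00573% of all features were called.

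Arrays that did not overlap were counted in the same way. Between the sorts this held for 4 genes at 84 h, 2 at 95 h and 5 at 8 d, against 17.4%, 4.81% and 15.9% of all features. Over time it held for 1 gene from 84 h to 95 h in Flk1+ cells (13.2% of all features) and 2 in Flk1- cells (9.98%). For the later step it held for 4 genes in Flk1+ cells (34.6%) and 2 in Flk1- cells (27.8%). The counts of 1 gene for the earlier step in Flk1+ cells and 2 for the later step in Flk1- cells lay near the share over all features and say little about these 6 genes.

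RefSeq promoter windows (GRCm38.p6, 250 bases before to 50 after a gene's start) were searched for 4 of the 6 genes, Foxa2, Apoa1, Mttp and Cubn. Ttr was left out of this search, and no window was at hand for Sox17. The windows of the secretory and uptake genes are shown because Foxa proteins are known regulators of Apoa1 in liver, and because Mttp and Cubn had higher means at 8 d than at 95 h in both sorts while Apoa1 had lower ones. The windows lie at chr9:46228380-46228679 on the plus strand for Apoa1, chr3:138143369-138143668 on the minus strand for Mttp and chr2:13491827-13492126 on the minus strand for Cubn, and each is written 5′ to 3′ on the strand of the gene. Capitals mark a match to any motif searched.
Apoa1: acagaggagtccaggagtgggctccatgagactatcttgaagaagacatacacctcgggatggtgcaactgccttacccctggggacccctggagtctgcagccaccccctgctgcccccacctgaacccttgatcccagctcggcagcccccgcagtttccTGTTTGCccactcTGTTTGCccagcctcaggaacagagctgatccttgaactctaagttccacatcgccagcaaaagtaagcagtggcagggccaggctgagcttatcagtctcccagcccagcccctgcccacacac
Mttp: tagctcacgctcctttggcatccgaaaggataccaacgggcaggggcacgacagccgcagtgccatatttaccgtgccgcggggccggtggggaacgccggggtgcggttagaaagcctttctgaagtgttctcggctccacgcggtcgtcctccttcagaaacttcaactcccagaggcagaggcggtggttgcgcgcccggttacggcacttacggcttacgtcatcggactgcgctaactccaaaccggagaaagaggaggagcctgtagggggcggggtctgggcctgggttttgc
Cubn: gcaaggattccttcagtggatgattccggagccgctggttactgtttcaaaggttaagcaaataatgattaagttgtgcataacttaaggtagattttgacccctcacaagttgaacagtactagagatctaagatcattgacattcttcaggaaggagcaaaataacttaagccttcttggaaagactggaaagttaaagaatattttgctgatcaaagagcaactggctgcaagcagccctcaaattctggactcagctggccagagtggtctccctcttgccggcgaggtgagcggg

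The motifs searched on both strands were FOXA (TGTTTAC or TGTTTGC, in 8.48% of 32851 windows), SOX (ATTGTT, 10.7%), a GATA site (AGATAA, 11.2%), an HNF1 core (GTTAAT, 7.10%), an HNF4 core (CAAAGT, 14.4%), a TATA box (TATAAA, 13.6%) and a CCAAT box (CCAAT, 37.4%). The Apoa1 window held TGTTTGC at 2 places on the plus strand, bases 163 to 169 and 176 to 182 counted from the 5′ end, and no other motif. The Mttp and Cubn windows held no match to these letters. Foxa2 has windows for 3 starts, of which the first held a CCAAT box, the second none, and the third GATA, HNF1 and HNF4 cores, with 2 bases shared by the HNF1 and HNF4 matches, and a TATA box. The level of Apoa1 and that of Foxa2 correlated at 0.10 over the 24 arrays, a description over arrays that share groups and a common reference.

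Among the other endoderm regulators, 12 of 25 listed genes were measured. Whether calls in this and the following lists hold without the outlying arrays was not tested. Over all features, 1176 in place of 2352 were called between the sorts at 84 h without those arrays. At 84 h 4 were higher in Flk1+ cells, Lefty2 (0.84) and Eomes (0.48), which act in Nodal signalling and early mesendoderm, and the zinc-finger factors Gata4 (0.81) and Gata6 (0.50). At the same time 4 were lower in Flk1+ cells, the Nodal inhibitor Lefty1 (-2.28), the head and visceral endoderm factor Otx2 (-0.90), Prox1 (-0.48) and Foxa1 (-0.47), the closest relative of Foxa2. The list's median was 0.14, beside 0.0041 over all features, of which 13.5% were called. At 95 h only Lefty1 was called (-2.44, lower) and at 8 d only Otx2 (-0.81, lower), with list medians of 0.14 and -0.082. At these times 2.03% and 0.373% of all features were called. Foxa1 stood at -0.43 at 95 h (adjusted p = 0.0909) and -0.43 at 8 d (adjusted p = 0.269) and was not called there. From 95 h to 8 d Gata6 rose in both sorts, by 0.56 in Flk1+ cells and 0.53 in Flk1- cells, while 7 genes fell in Flk1+ cells and 6 in Flk1- cells. Those that fell in both included the organizer factors Gsc (-3.00 in Flk1+ and -2.83 in Flk1- cells) and Lhx1 (-1.87 in Flk1+ and -2.04 in Flk1- cells). Foxa2 was called over that step in neither sort. Of all features 22.1% were called over it in Flk1+ cells and 17.7% in Flk1- cells.

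Of the other secreted products of visceral endoderm and liver, 10 of 28 were measured and limma called 0 between the sorts at 84 h, 95 h or 8 d, with 2, 2 and 1 at an unadjusted p under 0.05. The 1 gene at 8 d was coagulation factor X (F10), higher in Flk1+ cells by 0.67 (SE 0.16, adjusted p = 0.0812), opposite in direction to Ttr, Apoa1 and Mttp. Of all features 13.5%, 2.03% and 0.373% were called at these times. Albumin (Alb) differed by 0.15 at 8 d (adjusted p = 1.00), and apolipoprotein A-IV (Apoa4) by 0.080 (adjusted p = 1.00). The mean of the 10 genes per array at 8 d was -1.17 to -1.10 in Flk1+ cells and -1.32 to -1.14 in Flk1- cells, so it overlapped where Ttr did not. Between 95 h and 8 d the fetal growth factor Igf2 rose by 1.35 in Flk1+ and 1.59 in Flk1- cells and F10 rose by 0.74 in Flk1+ cells. Over that step Ambp fell by 0.69 in Flk1+ cells, and Alb fell by 0.46 and Apoa4 fell by 0.39 in Flk1- cells. Of all features 22.1% were called in Flk1+ cells and 17.7% in Flk1- cells. Over this step in Flk1- cells Alb and Apoa4 went opposite to Ttr and Mttp, whereas Igf2 went with them. The remaining 7 genes of the list passed in neither direction there. Alb averaged -2.06 and Apoa4 -2.93 in Flk1- cells at 8 d, and whether such low ratios lay above background is not given. Whether the list shares a programme with Ttr or Mttp was not tested.

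Of genes of apical endocytosis and absorptive epithelium, 12 of 20 were measured, and between the sorts 2 were lower in Flk1+ cells at 84 h, 1 at 95 h and 0 at 8 d, with 3 at an unadjusted p under 0.05 at 8 d. Those at 84 h were P4hb (-0.96), which encodes the partner subunit of Mttp, and Rab11a (-0.91), of recycling endosomes. At 95 h it was Lrp2 (-0.43, adjusted p = 0.0247), which encodes megalin, the receptor that works with cubilin. P4hb was called at neither later time (-0.27 at 95 h and 0.0065 at 8 d). Over the step from 95 h to 8 d 3 genes of this list rose and 3 fell in Flk1+ cells, where 22.1% of all features were called. In Flk1- cells 1 rose and 1 fell, near the 17.7% of all features called there. The zinc transporter gene Slc39a4 fell by 0.72 in Flk1+ cells and by 0.95 in Flk1- cells, and Ezr (-0.34) and Mogat2 (-0.46) also fell in Flk1+ cells. Of those that rose, Ctsz stood at 1.01 and P4hb at 0.74 in Flk1+ cells. The adaptor Dab2, which links megalin to clathrin, rose by 0.54 in Flk1+ cells and by 0.85 in Flk1- cells.

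**Figure D4:**
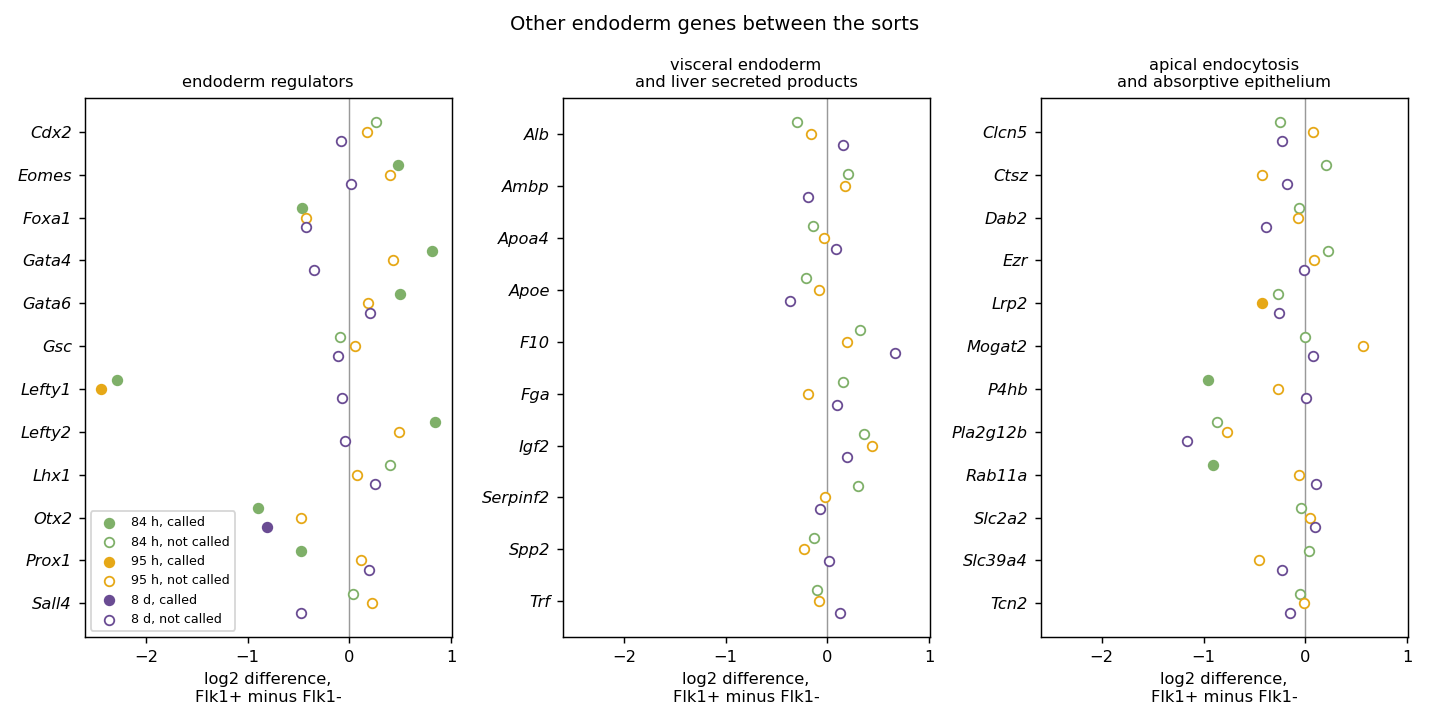
Difference between the sorts, Flk1+ minus Flk1- (log2, horizontal axes), for the measured genes of 3 lists at 84 h, 95 h and 8 d. Filled points were called. Lefty1 lay at -2.28 at 84 h and -2.44 at 95 h, and no gene of the secreted products (middle panel) was called.

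Marker lists of other cell types were read beside the 6 genes. The list of pluripotency and epithelium genes, 12 of 14 measured, had 9 lower in Flk1+ cells at 84 h, among them Sox2 (-3.56), Cdh1 (-2.54) and Epcam (-2.17). It had 5 lower at 95 h and 0 at 8 d, where 5 had an unadjusted p under 0.05 in limma and the median difference was -0.25. Over the step from 95 h to 8 d 6 of the 12 fell in Flk1+ cells (median -0.78) and 11 in Flk1- cells (median -1.24). Of all features 22.1% were called over this step in Flk1+ cells and 17.7% in Flk1- cells. The list's mean per array was 0.475 to 1.21 in Flk1+ cells and 1.75 to 2.02 in Flk1- cells at 84 h. It was 0.724 to 0.800 in Flk1+ cells and 1.60 to 1.79 in Flk1- cells at 95 h, and -0.19 to -0.067 in Flk1+ cells and 0.21 to 0.43 in Flk1- cells at 8 d. The part of these cells in the Foxa2 and Sox17 results was not tested. Of node, notochord and floor plate genes only 3 of 11 were measured. Between the sorts at 84 h only Foxa1 was called (-0.47), a gene also in the list of endoderm regulators. Shh went the other way and was not called (1.06, adjusted p = 0.0600), and neither was the BMP inhibitor Nog (-0.24, adjusted p = 0.338). None was called between the sorts at the later times. In Flk1+ cells Nog rose by 0.88 from 84 h to 95 h and fell by 0.78 from 95 h to 8 d.

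Between the sorts 13.5% of all features were called at 84 h, 2.03% at 95 h and 0.373% at 8 d, the shares beside the next lists. Of endothelial genes, 9 of 21 were measured, and Kdr, the gene of the sort, was alone called at 84 h. At 95 h Kdr was higher and Flt1 (-0.66) lower in Flk1+ cells, with a list median of -0.13. At 8 d Kdr (1.89), Cdh5 (1.84) and Eng (1.39) were higher in Flk1+ cells, with a list mean per array of -0.24 to 0.10 in Flk1+ and -0.80 to -0.74 in Flk1- cells. Their part in the Sox17 level of Flk1+ cells at 8 d was not tested. Parietal endoderm genes, 16 of 16 measured, had 2 lower at 8 d, Col4a1 (-1.70) and Krt7 (-0.80), and means per array of -0.074 to -0.020 in Flk1+ and 0.29 to 0.65 in Flk1- cells. From 95 h to 8 d 5 parietal genes rose and 1 fell in Flk1+ cells (median 0.24), where 22.1% of all features were called. In Flk1- cells, where 17.7% were called, 6 rose and 0 fell (median 0.47), with Nid1 up by 1.59, Sparc by 1.56 and Col4a1 by 1.53. At 84 h 2 of them were higher (Snai1 and Krt8) and 3 lower in Flk1+ cells, and at 95 h Krt7 was lower. Choroid plexus genes, 4 of 10 measured (Aqp1, Msx1, Otx2 and Wfdc2), had means per array of -0.71 to -0.46 in Flk1+ cells and -0.56 to -0.26 in Flk1- cells at 8 d, with Otx2 lower. At 84 h Otx2 and Wfdc2 (-1.11) were lower and at 95 h Msx1 (0.68) was higher in Flk1+ cells. The part of parietal endoderm or choroid plexus in the Ttr and Mttp results at 8 d was not tested.

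The named genes whose levels ran most like each of the 6 over the 24 arrays were found by Pearson correlation, given as a description, since arrays of a group share their sort, time and reference. Foxa2 ran most like the apical polarity gene Crb3 (0.944), the membrane protease gene St14 (0.936) and the epithelial zinc-finger factor Ovol2 (0.923). St14, for example, averaged -0.36 in Flk1+ cells and 1.30 in Flk1- cells at 84 h and -0.73 in Flk1+ cells and 0.18 in Flk1- cells at 8 d. Sox17 ran most like Lrp2 (0.834), the chloride channel gene Clcn2 (0.83) and the deacetylase gene Hdac6 (0.827).

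Ttr ran most like the cardiac myosin-binding protein gene Mybpc3 (0.902), the lysosomal protease gene Lgmn (0.892) and Ankrd1 (0.875). Lgmn averaged -1.83 in Flk1+ cells and -0.43 in Flk1- cells at 8 d, and at 95 h -2.59 in Flk1+ and -2.12 in Flk1- cells. Mttp ran most like the surface peptidase gene Dpp4 (0.927), the calcium-binding protein gene S100g (0.926) and Prkg1 (0.917). S100g averaged 0.099 in Flk1+ cells and 1.56 in Flk1- cells at 8 d. Apoa1 ran most like the mitochondrial thioredoxin gene Txn2 (0.836), Sgpl1 (0.818) and Sac3d1 (0.812), and Cubn most like Cemip (0.924), the tissue factor gene F3 (0.908) and the homeobox gene Rhox5 (0.898). Among the 6 genes themselves the highest correlations were Ttr with Mttp (0.804) and Foxa2 with Sox17 (0.680), and the lowest was Apoa1 with Mttp (-0.405).

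By mean level, Ttr and Mttp were both highest in Flk1- cells at 8 d, and in that order they did not overlap with the next group. For Ttr the other 5 groups overlapped with their neighbours in the order. For Mttp Flk1+ 8 d came next, overlapped with Flk1- 95 h, and each later neighbour overlapped too. Apoa1 was lowest in Flk1+ cells at 8 d, which was the only break in its order, and Cubn was highest in Flk1- cells at 8 d with its only break between Flk1+ 8 d and Flk1+ 95 h.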

How the data were processed

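Total RNA of 24 samples, 4 in each of 6 groups, was measured on 2-colour arrays, sample in Cy5 and pup reference in Cy3, both amplified, per the labels. The deposited values are log ratios per probe, read here as log2 of Cy5 over Cy3, the authors' normalization, log base and direction being not given in the sources used here. Direction was checked on 2 marker lists: 10 of 10 measured genes of pup tissues lay below 0 (median -2.24) and 12 of 12 embryonic stem cell genes above 0 (median 0.83). Another log base would scale all differences alike and change no call. No array has the dyes exchanged, and a dye effect common to all arrays drops out of differences. As deposited, array means were 0 and array medians deviated by up to 0.109 from their overall median of 0.0879, so each median was set to 0.

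Of 20280 probes 11813 had 1 gene in the platform annotation, 559 several and 7908 none. Probes of 1 gene were averaged, which left 8973 named genes and 8467 unnamed probes, 17440 features, with no filter, since no intensity was at hand. Probe sequences were not used here, so cross-hybridisation between near-identical genes such as Lefty1 and Lefty2 was not checked. R 4.3.3 with limma 3.58.1 and data.table (version 1.17.8) fitted a mean per group over all 24 arrays (lmFit and eBayes, 18 residual and 3.41 prior degrees of freedom). Adjustment was by Benjamini-Hochberg across every feature, and intervals are 95%. The fit was tested on simulated data first. Figures used Python 3.11.15 with matplotlib 3.10.9. The number of arrays limits the precision.

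The 6 genes, the lists and the 3 outlying arrays were chosen with earlier results of these data known. Named genes are the 6, Kdr, up to 4 called genes of each list and comparison with the largest differences, and the 3 named genes most correlated with each of the 6. Gata6, Eomes, Prox1, Foxa1, Shh, Krt8, Ezr and Mogat2 go beyond this rule and were named after their values were seen. Deviations from group means of same-numbered samples of the sorts correlated at 0.11 to 0.42 at 95 h and at 0.15 to 0.44 at 8 d, so the numbers were taken to pair those samples, but at -0.13 to 0.53 at 84 h and at -0.17 to 0.071 between times. Alternatives were the values as deposited, quantile normalization, the probe of largest SD, each probe on its own, only the arrays compared, array weights, leaving out arrays, and the replicate number as a block.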

Additional observations from a re-analysis of the deposited data

Results flagged for a closer look

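In 36 groups of 4 arrays, 6 for each gene, 1 array was far from the other 3 in 2 groups, and chance alone gives about 1 in 20. Mttp in Flk1+ cells at 95 h had -2.23 on array 2, whereas the other 3 arrays had -2.48 to -2.46. Cubn in Flk1- cells at 84 h had -1.28 on array 1, whereas the other 3 had -0.92 to -0.85. For Ttr the difference between Flk1+ and Flk1- cells at 8 d and at 95 h itself differed, by -2.02 in the interaction test of limma (adjusted p = 3.7784e-05).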

How the results depend on the processing

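Of 54 comparisons of the 6 genes, 19 were called, and 10 of these kept their direction and call under all 32 alternatives run for each: Foxa2 between the sorts at all 3 times, Sox17 at 95 h, Ttr and Mttp at 8 d, Ttr and Mttp in Flk1- cells and Apoa1 in Flk1+ cells at 8 d against 95 h, and the change for Ttr at 8 d minus 95 h. Of the 35 not called, 21 were called under no alternative. Over 1728 values, 1590 kept direction and call, 82 lost and 24 gained a call, and 32 turned direction, none of them called before. These counts include settings that could not move the difference itself. The cause was not tested.

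The number of the 6 genes called between the sorts at 84 h was 1 in place of 3 without the 3 outlying arrays. In Flk1+ cells at 95 h against 84 h it was 2 in place of 1 after quantile normalization and 0 with only the arrays compared (1 at an unadjusted p under 0.05). In Flk1- cells over that step it was 0 in place of 2 as deposited, after quantile normalization and with only the arrays compared (4, 3 and 4 at an unadjusted p under 0.05). In Flk1- cells at 8 d against 95 h it was 5 in place of 3 with array weights. For the change of the sort difference at 8 d minus 95 h it was 2 in place of 1 with array weights, 3 without the 3 outlying arrays and 2 with the replicate block. Leaving out each array in turn gave 2 to 4 at 84 h, 2 to 2 at 95 h, 3 to 4 at 8 d, 1 to 1 and 2 to 3 in Flk1+ cells and 0 to 3 and 2 to 3 in Flk1- cells for the earlier and later step, and 0 to 0 and 1 to 2 for the earlier and later change of the sort difference.

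Of values that turned direction, Ttr at 84 h was 0.00045 as deposited, 0.227 after quantile normalization and 0.0113 without Flk1- array 3, and at 95 h -0.0126, -0.0332, -0.00109, -0.103 and -0.0548 without Flk1+ array 1, 3 or 4 or Flk1- array 2 or 4. Quantile normalization gave at 95 h against 84 h -0.101 for Ttr, -0.447 for Apoa1 (adjusted p = 0.0230), -0.364 for Mttp and -0.298 for Cubn in Flk1+ cells, -0.00899 for Ttr in Flk1- cells and -0.0920 for its change of the sort difference, which was -0.0554 and -0.00733 without Flk1- 95 h array 2 or 4. Apoa1 in Flk1+ cells at 95 h against 84 h was -0.0447 as deposited and -0.0226, -0.0136, -0.0437 and -0.0310 without Flk1+ 95 h array 1 or 3 or 84 h array 2 or 3, and between the sorts at 95 h -0.0937 with array weights and -0.0444 without Flk1- array 2. Cubn at 95 h against 84 h was -0.102 and -0.0275 in Flk1+ cells without 95 h array 1 or 84 h array 4, and -0.289 with array weights and -0.240 without 95 h array 1 in Flk1- cells. Its change of the sort difference was 0.372 and 0.320 under those last settings, and at 8 d minus 95 h 0.138 and 0.133 without Flk1- 8 d array 4 or 95 h array 4. Sox17 in Flk1+ cells at 95 h against 84 h was 0.0566 without the 3 outlying arrays.

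Leaving out 1 array, these ran from -0.110 to 0.0113 (Ttr at 84 h) and -0.103 to 0.173 (Ttr at 95 h), from -0.0444 to 0.110 (Apoa1 at 95 h), from -0.0437 to 0.0709 (Apoa1) and -0.102 to 0.212 (Cubn) for 95 h against 84 h in Flk1+ cells, from -0.240 to 0.609 (Cubn) in Flk1- cells, and for the change of the sort difference from -0.0554 to 0.220 (Ttr) and -0.529 to 0.320 (Cubn) for the earlier and -0.716 to 0.138 (Cubn) for the later.

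Over all features, counts called moved by more than 1.5 times under some alternatives and by less under others. Leaving out 1 array gave 1017 to 4550 at 84 h (2352 with all), 286 to 442 at 95 h (354 with all), 31 to 102 at 8 d (65 with all), 1637 to 5358 and 93 to 449 for 95 h against 84 h in Flk1+ and Flk1- cells (3451 and 286 with all). Over the other alternatives counts ran from 347 to 4386 at 84 h, 135 to 698 at 95 h, 70 to 2332 at 8 d, 0 (limma, 3020 at an unadjusted p under 0.05) to 4035 and 3831 to 6059 in Flk1+ cells and 70 to 2156 and 3048 to 6692 in Flk1- cells for the earlier and later step (3861 and 3080 as reported for the later), and 0 to 46 and 82 to 314 for the changes of the sort difference (1 and 93 as reported). As deposited, 1447 features were higher and 1209 lower in Flk1+ cells at 84 h, whereas centring gave 925 and 1427. The replicate block at 84 h, where numbers did not pair all samples, gave 4386 features and called Cubn (adjusted p = 0.0340), and over times it changed no call of the 6 genes. At 95 h and 8 d it changed no such call, and it called Sox17 in the change of the sort difference (adjusted p = 0.0357), with 173 in place of 93 features. Signal over background is not given.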
